A study of Rattus norvegicus with 30 samples.

Results

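The insulin-like growth factor system is described here by 10 genes: the ligands Igf1 and Igf2, the receptors Igf1r and Igf2r, and the binding proteins Igfbp2, Igfbp3, Igfbp4, Igfbp5, Igfbp6 and Igfbp7. Genes were taken by symbol, and 10 of 10 were found among the 17134 genes measured. The set was built around Igfbp6, which was selected on its high level in AKO rats, so its AKO values are given as a description with no test. The data are RNA-seq of brain tissue labelled frontal cortex, from male Sprague Dawley rats on a normal diet, 10 per group. WT rats carry the rat amylin gene, whose product does not form amyloid. HIP rats express human amylin in the β-cells of the pancreas and develop type-2 diabetes, and AKO rats lack rat amylin. The methods give an age of 15 to 16 months for rats in most experiments, WT and HIP rats included, and state no age for these 10 AKO rats in particular. The tissue is frontal cortex in the labels, cerebral cortex in the methods and hippocampus in the results text of the study, so the region behind each level is uncertain. Iapp, the amylin gene, was not matched by symbol among the genes measured, so the knock-out could not be checked on its own transcript. The comparisons ask whether the genes of this system differ in the brain with human amylin in the pancreas and with loss of the rat hormone.

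Igf1 and Igf2 are small secreted proteins related to insulin that act on growth, survival and metabolism. Igf1r is the tyrosine kinase receptor through which both ligands signal, while Igf2r, the cation-independent mannose 6-phosphate receptor, takes up Igf2 for breakdown and carries enzymes to lysosomes. The binding proteins hold the ligands outside the cell, prolong their stay and limit or release their action, and Igfbp6 binds Igf2 in preference to Igf1. In the adult brain Igf2 comes mainly from the meninges, the choroid plexus and vessels, and Igf1 comes from neurons and glia as well as from the blood.

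Levels are normalized counts, the deposited signal after scaling between libraries. The totals of these values were 15.4 to 18 M (mega, counts on the deposited scale) per library, and the reads behind them were estimated from the smallest step between values at 12.9 to 21.1 M in WT, 13.7 to 16.7 M in HIP and 12.9 to 23.6 M in AKO rats. The lowest estimate for any of the 10 genes in any library was 15 reads, for Igfbp4 in WT replicate 3, and 10 of 10 genes passed the filter of a mean of at least 1 normalized count. The rats of each group are numbered as replicates 1 to 10, a number that only names a rat.

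Some libraries stood apart in the tissue they represented. In WT replicate 3, the list of cerebellum markers (4 of 4 genes found, Gabra6 the most abundant) had a mean log2 value of 13.14 and a summed level of 41401, against a median log2 value of 2.24 over all libraries. The list of neocortical excitatory neurons (7 of 7 genes, Slc17a7 the most abundant) was at 6.21 in that library and between 10.02 and 11.01 in the others, so the labelled cortex was poorly represented there. HIP replicate 10 also held cerebellum markers, at 9.84 with a summed level of 4164. HIP replicate 4 held pineal gland markers (6 of 6 genes, Tph1 the most abundant) at 9.94 and choroid plexus markers (10 of 10 genes, Ttr the most abundant) at 8.58, with summed levels of 22922 and 17955. AKO replicate 7 held choroid plexus markers at 6.55, with a summed level of 4163. Markers of the olfactory bulb (4 of 5 genes, Cdhr1 the most abundant, Tbx21 at 0 in 5 libraries) lay more than 2 log2 units above the median of all libraries in 3 WT, 3 HIP and 4 AKO rats, and markers of the striatum (7 of 7 genes, Ppp1r1b the most abundant) did so in WT replicate 9 and AKO replicate 1. With any of these lists over that limit counted, 16 of 30 libraries were over it, and 14 were not: 5 WT, 5 HIP and 4 AKO. In bulk tissue, fewer cells of a type and less RNA per cell cannot be told apart.

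Igfbp6, the gene the set was chosen for, had a higher level in AKO rats than in both other groups. In WT rats its normalized count was 92.1 at the lowest, in replicate 3, 171 at the median and 275 at the highest, in replicate 2 (178 ± 51.5, mean ± SD, n = 10). In HIP rats it was 127 at the lowest, in replicate 8, 171 at the median and 320.0 at the highest, in replicate 4 (179 ± 58.2, SD, n = 10). In AKO rats it was 257 at the lowest, in replicate 7, 433 at the median and 632 at the highest, in replicate 9 (414 ± 132.1, SD, n = 10). The WT and HIP ranges lay over each other, while the AKO range touched them only at its low end. Estimated reads of Igfbp6 ran from 77.0 to 773 per library, so none of these values was near the limit of detection.

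The promoter of Igfbp6 is shown because the set was built around this gene. RefSeq places it at chr7:135154669-135154968 on the + strand of the assembly GRCr8, 250 bases before the start of the gene and 50 after it. The capitals mark matches to the letters GTAAACA, a forkhead motif, and CAGCTG, an E-box.
Igfbp6: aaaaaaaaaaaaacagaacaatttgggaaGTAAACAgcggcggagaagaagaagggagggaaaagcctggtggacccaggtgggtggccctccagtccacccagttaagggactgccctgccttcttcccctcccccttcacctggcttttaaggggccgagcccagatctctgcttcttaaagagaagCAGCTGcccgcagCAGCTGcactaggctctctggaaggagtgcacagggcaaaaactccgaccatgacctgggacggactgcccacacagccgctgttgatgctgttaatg
Promoters were found for 10 of 10 genes, 11 in all because Igf2 has a pair of them, among 33469 promoters of the same length. Both strands were searched. CAGCTG stood 61 and 48 bases before the start of Igfbp6 and in none of the other promoters of the set, and 15.1% of all promoters held it at least once and 1.69% at least 2 times. GTAAACA stood 221 bases before the start of Igfbp6 and also in none of the others, and 3.78% of all promoters held it. GGGCGG, the GC box, was absent from the Igfbp6 promoter and present in 6 of the 11, those of Igf1r, Igf2r, Igfbp2, Igfbp7 and both of Igf2, and 33.1% of all promoters held it. TATAAA, the TATA box, was found in the promoter of Igfbp4 alone, 40 bases before the start, and 14.2% of all promoters held it. The Igfbp6 promoter had a GC content of 55.3%, within the range of the set, 48.3% for Igf1 to 78.0% for Igf1r. The matches describe the letters in these windows and were chosen with the sequence in view.

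Rat by rat, the AKO values of Igfbp6 formed a wide band. The highest 3 normalized counts were 632 in AKO replicate 9, 571 in replicate 1 and 509 in replicate 8. Next came 445 in replicate 5, 438 in replicate 10 and 427 in replicate 2. The lowest 4 were 305 in replicate 4, 291 in replicate 6, 263 in replicate 3 and 257 in replicate 7. Of the 10 AKO rats, 8 were above the highest WT rat and 10 above the WT median, and 9 of 10 WT rats were below the lowest AKO rat. Against HIP rats, 6 of 10 AKO rats were above the highest, HIP replicate 4, the library with pineal gland and choroid plexus markers. Without that library the highest HIP value was 226, in replicate 10, and 10 of 10 AKO rats were above it. WT replicate 2 was not over the limit on any list of other brain regions, so only its Igfbp6 value singled it out here. The next WT value was 229.8 in replicate 4, below the lowest AKO value, 257. With all rats kept, the AKO and WT ranges overlapped. In these contrasts, on which Igfbp6 was chosen, limma called 0.0997% of 17058 genes for AKO vs WT and 0.17% of 17092 genes for AKO vs HIP at an adjusted p-value under 0.05. That is another measure than overlap, and the share of all genes with as little overlap is not given here.

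The AKO median of Igfbp6 was 2.53 times the WT median and 2.53 times the HIP median. On the scale of log2(normalized count + 1), which understates differences of genes with low counts, the AKO mean was above the WT mean by 1.20 and above the HIP mean by 1.19. In the 14 libraries under the limit for other brain regions, AKO rats held 305 to 632, WT rats 123 to 275 and HIP rats 134.4 to 184, and the log2 differences were 1.26 and 1.45. The order of the group medians was AKO above HIP and WT, and the last 2 did not differ beyond their spread. HIP vs WT was not used in the choice and was tested: the log2 fold change of Igfbp6 was 0.01 (SE 0.18, 95% confidence interval -0.37 to 0.39), with an adjusted p-value of 0.999 by limma, and the HIP values lay above the WT median in 5 of 10 rats. The sign of this small difference was negative in some fits, down to -0.25 without WT replicate 3 and HIP replicates 4 and 10 and with the olfactory bulb markers as a covariate.

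**Figure D1:**
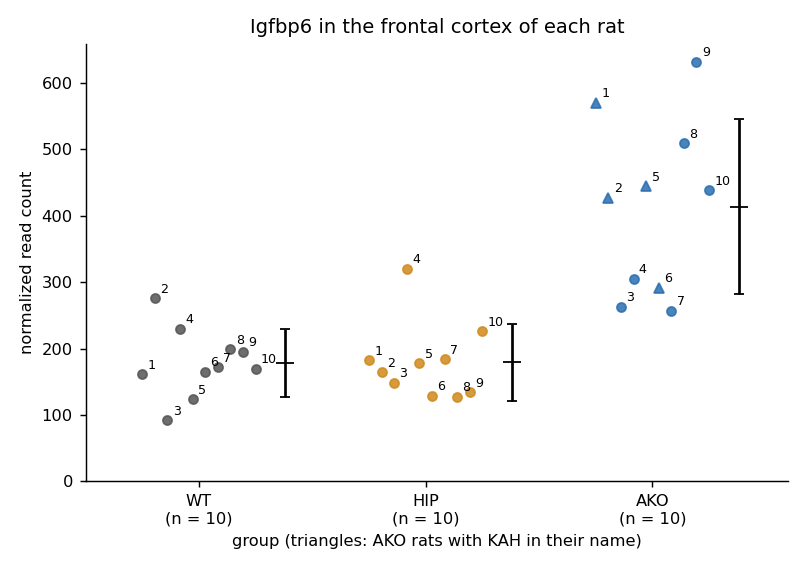
Normalized count of Igfbp6 in each rat of the WT, HIP and AKO groups, with the replicate number beside each point, triangles for AKO rats whose name holds the letters KAH, and the mean ± SD of each group (n = 10). The AKO rats lay between 257 and 632, above all WT rats but replicate 2 and all HIP rats but replicate 4.

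The names of the AKO rats hold the letters KAH in 4 rats, replicates 1, 2, 5 and 6, and the letters AKO in 6, and what the letters mean is not given in the sources used here. The names of all WT and HIP rats hold the letters RT, and no AKO rat has them. In the contrasts with AKO rats, genotype and name letters therefore cannot be told apart. Igfbp6 was 291 to 571 normalized counts in the KAH-named rats and 257 to 632 in the AKO-named rats, and each set was above the WT mean, by 1.29 and 1.14 on the log2 scale. The choice of Igfbp6 on its AKO level largely fixes that both sets lay above WT rats. Between the sets, the log2 fold change of Igfbp6 was 0.16 (SE 0.27, 95% confidence interval -0.44 to 0.75, adjusted p-value 0.926 by limma). Of the 10 genes, 0 had an adjusted p-value under 0.05 by limma in this comparison and 1 had an unadjusted one, where 0.00587% and 4.9% of 17030 genes did. That gene was Igfbp7, a secreted protein of vessel walls that binds the ligands weakly, with 1260.1 to 2048 normalized counts in KAH-named rats and 1085 to 1308 in AKO-named rats. Its log2 fold change was 0.44 (SE 0.13), and its adjusted p-value by limma was 0.80.

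The ligands varied several-fold within every group and did not separate the groups. Igf1, which signals growth and survival, had 50.9 to 242 normalized counts in WT rats (median 81.6), 40.7 to 142.02 in HIP rats (median 74.5) and 36.4 to 269 in AKO rats (median 87.8). Igf2, the ligand that Igfbp6 prefers, had 1183 to 4109.6 in WT rats (median 1610.5), 1056 to 3855 in HIP rats (median 1852) and 963 to 4845 in AKO rats (median 2191). The ranges of the groups overlapped for both ligands, and the HIP range ended lowest, with 2 WT and 2 AKO rats above it for Igf1 and 2 WT and 1 AKO rat for Igf2. The log2 fold change of Igf1 was -0.10 (SE 0.32) for AKO vs WT and -0.30 (SE 0.28) for HIP vs WT. That of Igf2 was 0.18 (SE 0.30) for AKO vs WT and 0.04 (SE 0.27) for HIP vs WT, and without WT replicate 3 these were 0.30 and 0.16.

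The receptors were steadier than the ligands in WT and HIP rats. Igf1r had 139.6 to 327 normalized counts in WT rats (median 218), 152.004 to 310.0 in HIP rats (median 209) and 69.3 to 269 in AKO rats (median 206). Igf2r had 569.8 to 866 in WT rats (median 661), 541 to 758 in HIP rats (median 611) and 305 to 937 in AKO rats (median 699). The lowest AKO value of both receptors came from replicate 5, and the groups overlapped. The log2 fold change of Igf1r was -0.08 (SE 0.21) for AKO vs WT and 0.09 (SE 0.15) for HIP vs WT. That of Igf2r was -0.08 (SE 0.15) for AKO vs WT and -0.13 (SE 0.09) for HIP vs WT.

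Among the binding proteins other than Igfbp6, no group stood apart. Igfbp2, abundant in the choroid plexus and meninges, had 565 to 1713 normalized counts in WT rats (median 819), 437 to 1397 in HIP rats (median 789) and 485 to 2013 in AKO rats (median 1019). Igfbp3, the main carrier of the ligands in blood, had 50.2 to 180.3 in WT rats (median 127), 102 to 192 in HIP rats (median 126) and 98.8 to 180.4 in AKO rats (median 113). Igfbp5, which binds to extracellular matrix, had 696 to 4253 in WT rats (median 1202), 798 to 2914 in HIP rats (median 1378) and 624 to 5858 in AKO rats (median 1577). Igfbp5 had the widest spread of the set apart from 1 library for Igfbp4, with a highest AKO value 9.39 times the lowest. Igfbp7 had 602 to 1457 in WT rats (median 1159.6), 1017 to 1576 in HIP rats (median 1141) and 1085 to 2048 in AKO rats (median 1234), and 3 of 10 AKO rats were above the highest WT rat.

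Igfbp4, a binding protein that restrains the ligands until a protease cleaves it, depended strongly on which libraries were used. It had 17.9 to 994 normalized counts in WT rats (median 628), 544 to 1179 in HIP rats (median 921) and 519.8 to 1163 in AKO rats (median 899). The WT minimum was replicate 3, the library with cerebellum markers, and the next WT value was 509. The WT median was exceeded by 8 of 10 AKO rats and 9 of 10 HIP rats. The log2 fold change was 0.82 for AKO vs WT (SE 0.50, 95% confidence interval -0.21 to 1.85, adjusted p-value 0.608 by limma) and 0.79 for HIP vs WT (SE 0.50, adjusted p-value 0.999 by limma). Without WT replicate 3, it was 0.30 for AKO vs WT (adjusted p-value 0.508 by limma) and 0.28 for HIP vs WT (adjusted p-value 1 by limma). In the 14 libraries under the limit for other brain regions, which also lack WT replicate 3, it was 0.67 for AKO vs WT (p = 0.000394, adjusted p-value 0.133 by limma), 0.17 for HIP vs WT (adjusted p-value 0.998 by limma) and 0.50 for AKO vs HIP (p = 0.0225, adjusted p-value 0.364 by limma). Over all alternatives the adjusted p-value of Igfbp4 ran from 0.133 to 0.856 for AKO vs WT and from 0.836 to 1 for HIP vs WT.

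**Figure D2:**
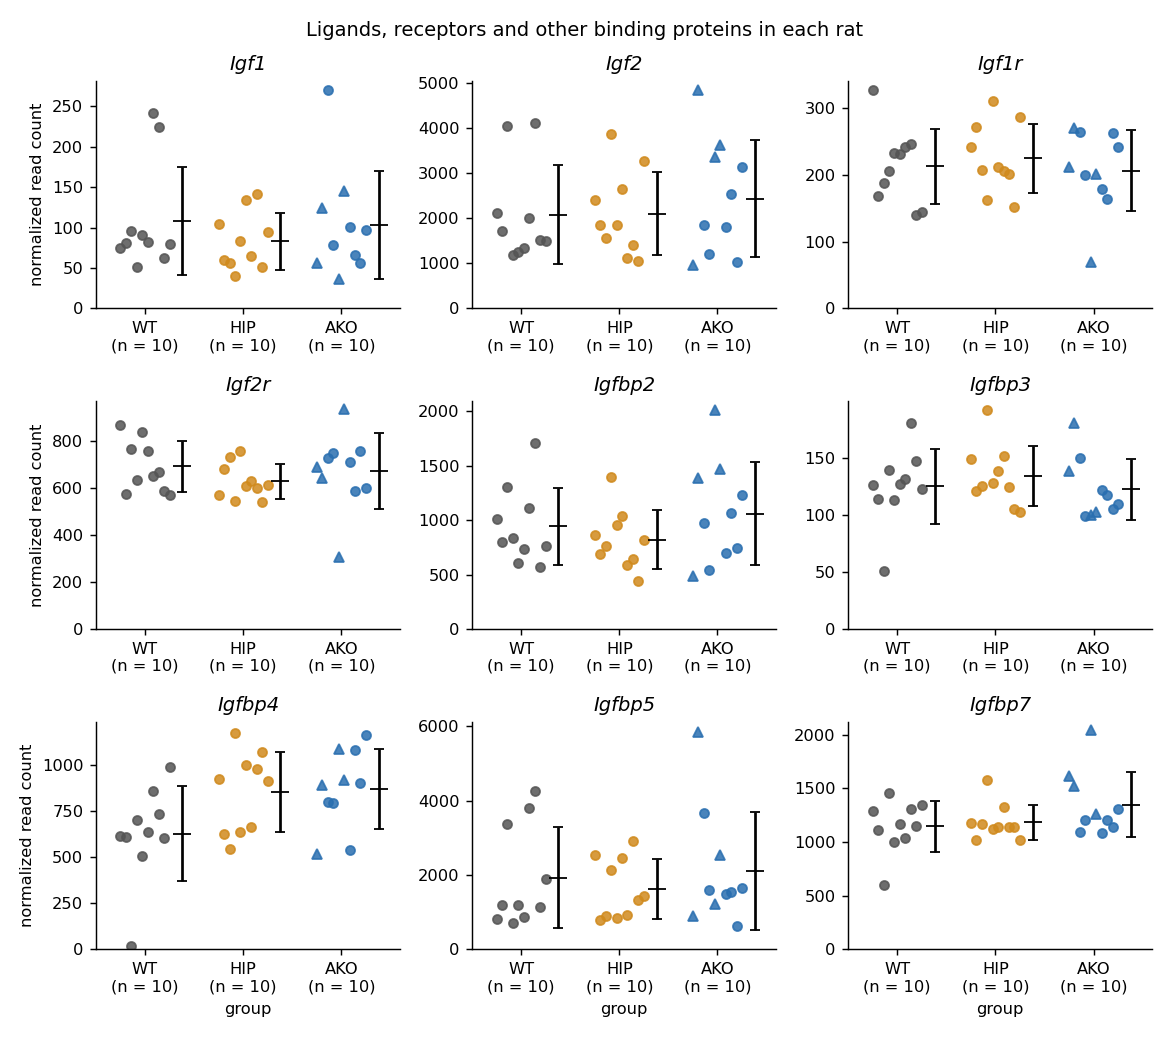
Normalized count of the 9 other genes of the set in each rat of the WT, HIP and AKO groups, with triangles for KAH-named AKO rats and the mean ± SD of each group (n = 10). The groups overlapped for all 9 genes, and the lowest Igfbp4 value was 17.9, in WT replicate 3.

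For AKO vs WT, limma tested 9 genes of the set, all but Igfbp6, and 0 had an adjusted p-value under 0.05, where 17 of 17058 genes (0.0997%) did. At an unadjusted p-value under 0.05 the count was again 0 of 9, against 9.34% of all genes, and it was 1 or 2 in 5 of 37 alternatives, for Igfbp4 or Igfbp7. The median log2 fold change of the 9 was 0.12, from -0.10 for Igf1 to 0.82 for Igfbp4, and that of all genes was 0.0014. Igfbp7 had the smallest adjusted p-value, 0.586 by limma, with a log2 fold change of 0.24 (SE 0.14) and 7 of 10 AKO rats above the WT median, and its log2 fold change was 0.14 without WT replicate 3. The count of 17 genes ran from 10 to 39 when single rats were left out: it was 10 without WT replicate 1, 11 without WT replicate 5, 11 without WT replicate 6, 39 without AKO replicate 1, 11 without AKO replicate 4, 38 without AKO replicate 6 and 10 without AKO replicate 7. It was 857 with sample-quality weights, 0 with only KAH-named and 68 with only AKO-named AKO rats, so the share of all genes beside the 0 of 9 depended strongly on the fit, and 0 of 9 passed in each of these fits too.

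For AKO vs HIP, 0 of 9 genes had an adjusted p-value under 0.05 by limma, where 29 of 17092 genes (0.17%) did, and 0 of 9 had an unadjusted one, against 12.7%. The unadjusted count was 1 in 5 of 37 alternatives, for Igfbp2, Igfbp4 or Igfbp7, and 2 of these 5 are the same fit, without HIP replicate 4, where Igfbp7 was at 0.22 (p = 0.0388, adjusted p-value 0.257 by limma). The median log2 fold change was 0.14, from -0.17 for Igf1r to 0.31 for Igfbp2, and that of all genes was -0.0047. The log2 fold change of Igfbp2 had an SE of 0.23 and a 95% confidence interval of -0.18 to 0.79, and 6 of 10 AKO rats were above the HIP median. Igfbp7 had the smallest adjusted p-value, 0.502 by limma, with a log2 fold change of 0.17 (SE 0.10). The count of 29 genes was 19 without HIP replicate 2, 18 without HIP replicate 3, 70 without HIP replicate 4, 18 without HIP replicate 7, 17 without HIP replicate 8 and 18 without HIP replicate 10. It was 58 without AKO replicate 1, 17 without AKO replicate 4, 18 without AKO replicate 7 and 18 without AKO replicate 8. It was 1143 with sample-quality weights, 3 with only KAH-named and 120 with only AKO-named AKO rats, and 0 of 9 genes of the set passed in each.

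For HIP vs WT, all 10 genes were tested, and 0 had an adjusted p-value under 0.05 by limma, where 0 of 17085 genes (0%) did. At an unadjusted p-value under 0.05 the count was 0 of 10, against 439 genes (2.57%), and it was 1 in 2 of 35 alternatives, for Igfbp2 or Igf2r. The median log2 fold change of the 10 was 0.03, with 6 above 0 and 4 below, and that of all genes was 0.0018. The adjusted p-value by limma was 0.999 for each of the 10. The intervals show what these data could resolve: Igf2r, with the narrowest, had a 95% confidence interval of -0.31 to 0.05, while the widest were those of Igfbp4, -0.25 to 1.83, and Igfbp5, -0.85 to 0.64. The comparisons of AKO with WT, of HIP with WT and of AKO with HIP share their rats, so their values are not independent.

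**Figure D3:**
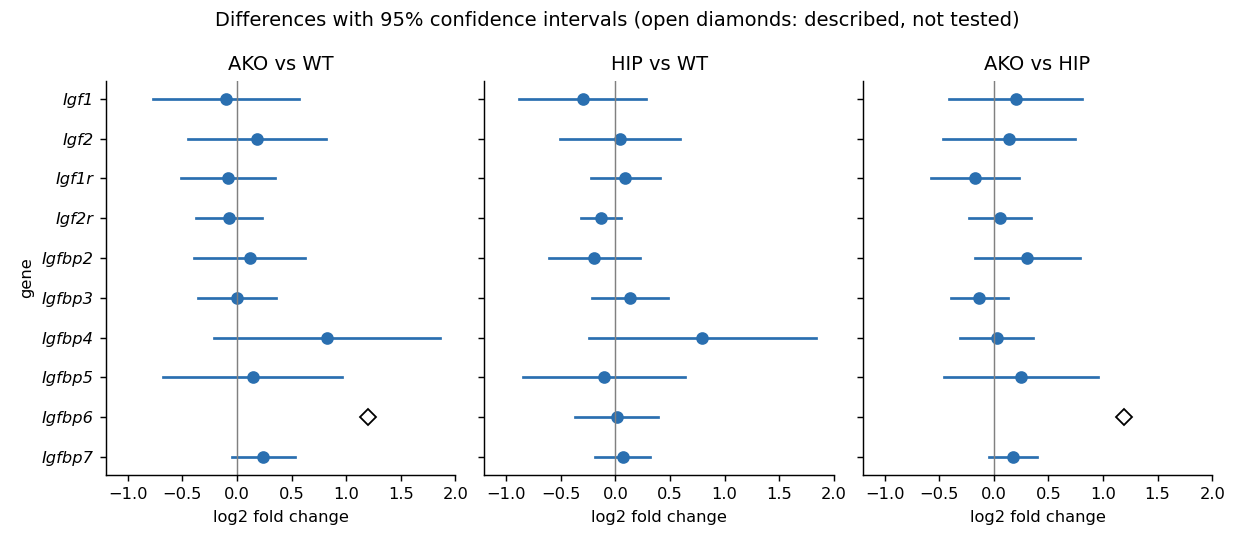
Log2 fold change of each of the 10 genes for AKO vs WT, HIP vs WT and AKO vs HIP, with 95% confidence intervals from limma for tested genes (n = 10 rats per group) and open diamonds for Igfbp6 in the AKO contrasts, which was described and not tested. Igfbp6 lay at 1.20 and 1.19 in the AKO contrasts and at 0.01 for HIP vs WT, and the intervals of all tested genes included 0.

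Part of the spread of the ligands and binding proteins within groups went with markers of other tissue. Over the 27 libraries without WT replicate 3 and HIP replicates 4 and 10, with the groups as terms, Igfbp5 had a slope of 0.37 (SE 0.03) in log2 units per log2 unit of the olfactory bulb list, and Igf1 one of 0.26 (SE 0.04). The summed level of that list was 198 to 10060 normalized counts in WT rats, 163 to 5706 in HIP rats and 208 to 9288 in AKO rats. The highest Igfbp5 values, in WT replicate 8, HIP replicate 8 and AKO replicate 2, and the highest Igf1 values, in WT replicate 7, HIP replicate 8 and AKO replicate 3, all came from libraries over the limit on this list. Igfbp6 had a slope of -0.05 (SE 0.03) on it. Slopes were not particular to this list. Igf1 had 1.22 (SE 0.16) on the dentate gyrus and 1.80 (SE 0.36) on the astrocyte list. Igfbp5 had 1.26 (SE 0.24) and 2.44 (SE 0.39) on these, and -3.21 (SE 0.39) on the neocortical excitatory neuron list. Some of these sizes depended on the libraries left out. Over all 30 libraries, Igf1 had 0.60 (SE 0.19) on the dentate gyrus and 1.64 (SE 0.365) on the astrocyte list. Igfbp5 then had 0.89 (SE 0.22) and 2.41 (SE 0.38) on these, and -0.49 (SE 0.17) on the neocortical excitatory neuron list.

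Meningeal fibroblast markers (9 of 10 genes found, Col1a2 the most abundant, none at 0 in any library) also went with several genes of the set. The slope on that list was 0.95 (SE 0.12) for Igf2, 0.77 (SE 0.11) for Igfbp2, 1.05 (SE 0.23) for Igfbp5 and 0.69 (SE 0.21) for Igf1. For Igfbp6 it was -0.19 (SE 0.12). Igf2, Igfbp2 and Igfbp4 also had slopes on the olfactory bulb list, of 0.15 (SE 0.05), 0.12 (SE 0.04) and 0.09 (SE 0.03), so the genes that went with each list overlapped. On the meningeal list Igfbp4 had 0.27 (SE 0.11) over the 27 libraries and 0.0036 (SE 0.32) over all 30. In the 10 libraries over the olfactory bulb limit the median of Igfbp4 was 926 normalized counts, and in the 17 others it was 638. The mean log2 value of the meningeal list was 6.59 to 8.37 in WT rats (median 7.56), 7.07 to 8.47 in HIP rats (median 7.62) and 6.37 to 8.77 in AKO rats (median 7.68). The summed level had medians of 2302 normalized counts in WT, 2346 in HIP and 2506 in AKO rats. These slopes are descriptions added after the values were seen.

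Of 16 marker lists, 9 had their highest median summed level in AKO rats. The mean log2 value, used for the covariates and slopes, ordered some lists otherwise. On it the AKO median was lowest for the neocortical excitatory neuron list (10.69, 10.77 and 10.52 in WT, HIP and AKO rats) and the brain endothelium list (9.159, 9.164 and 9.148). It was highest instead for the dentate gyrus list (4.79, 4.80 and 4.90) and the pineal gland list (1.36, 1.24 and 1.41). In the order WT, HIP and AKO, the medians of the summed level were 269, 456 and 885 normalized counts for the olfactory bulb list, 153.8, 274 and 363 for the choroid plexus list, in which Aqp1 had the highest median over all libraries and Ttr was at 0 in 5, and 31270.2, 35115 and 40104 for the astrocyte list (5 of 5 genes, Slc1a3 the most abundant). They were 4169, 3866 and 5313 for the microglia list (6 of 6 genes, Csf1r the most abundant). For blood, which only Hba-a2 of 4 genes listed stood for, they were 6700, 4432 and 8613. They were not highest in AKO rats for, among others, the mural cell list (3651, 3129 and 3151), the striatum list (7211, 5761 and 6852) and the GABA neuron list (10446, 10357 and 8956). As covariates, the choroid plexus list gave a log2 difference of Igfbp6 of 1.34 for AKO vs WT and 1.19 for AKO vs HIP, the blood list gave 1.10 and 0.996, and the olfactory bulb list, without WT replicate 3 and HIP replicates 4 and 10, gave 1.11 and 1.37. Over the 27 libraries the slope of Igfbp6 was -0.63 (SE 0.22) on the astrocyte list, -0.19 (SE 0.07) on the choroid plexus list and 0.18 (SE 0.08) on the blood list, and over all 30 it was -0.64, 0.02 and 0.23. Within the 10 AKO rats, Spearman's rho of Igfbp6 with the lists ran from -0.81 for the choroid plexus and -0.68 for the astrocyte list to 0.67 for the blood list. Hba-a2 had 9677 to 40576 normalized counts in 5 of the 6 AKO rats with the highest Igfbp6 values, 6325 in the other, replicate 10, and 2847 to 7548 in the 4 with the lowest. On the meningeal list, with a rho of -0.38, the highest Igfbp6 values, in replicates 9 and 1, belonged to the rats with the lowest values, 6.97 and 6.37, but replicate 7, with the lowest Igfbp6 value, had the next lowest, 7.23, and replicate 2, with the highest value of that list, 8.77, had 427 normalized counts of Igfbp6. The slopes, the rho values and the fits with the blood and olfactory bulb lists were added after the values were seen, and the part of these tissues in the differences between groups was not tested.

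**Figure D4:**
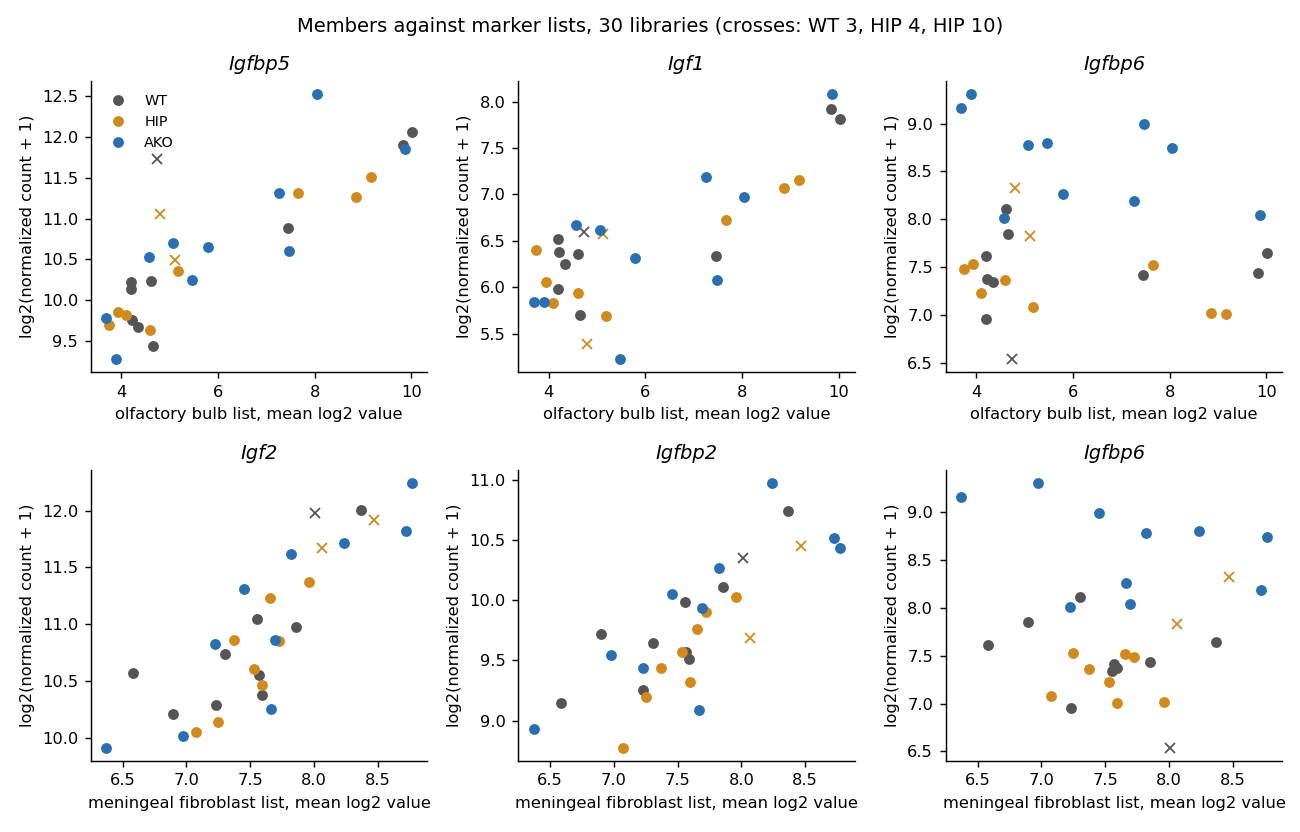
Log2(normalized count + 1) in each library for Igfbp5, Igf1 and Igfbp6 against the mean log2 value of the olfactory bulb markers, and for Igf2, Igfbp2 and Igfbp6 against that of the meningeal fibroblast markers, with colours for the groups and crosses for WT replicate 3 and HIP replicates 4 and 10, which the slopes left out. Igf2 went with the meningeal list (slope 0.95) and Igfbp5 with the olfactory bulb list (slope 0.37), and Igfbp6 went with neither (-0.19 and -0.05).

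The other genes of the system were counted by class. Of 38 genes listed, 33 were found and tested: 6 of 8 carriers, proteases and their inhibitors, 3 of 5 further ligands and receptors, 2 of 3 RNA-binding proteins and 22 of 22 signalling genes. For AKO vs WT, 0 of 33 had an adjusted p-value under 0.05 by limma, and 2 were higher and 3 lower in AKO rats at an unadjusted one, where 9.34% of all genes passed. For AKO vs HIP, the counts were 0, 2 higher and 4 lower, where 12.7% of all genes passed. For HIP vs WT, they were 0, 1 higher and 0 lower, where 2.57% passed. The median log2 fold changes of the 33 were -0.05, -0.12 and 0.05. The genes named next had the smallest p-values of this list in each comparison.

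Htra1, a secreted serine protease that can cleave binding proteins of this system, was higher in level in AKO rats. It had 949.5 to 2494 normalized counts in WT rats (median 1956), 1432 to 2303 in HIP rats (median 2036) and 2170.4 to 5061 in AKO rats (median 2669). Of the 10 AKO rats, 6 were above the highest WT rat, 9 above the highest HIP rat and 10 above the WT median, and replicate 1 was far above the rest. The share of all genes with such counts is not given here, and Htra1 was named for its small p-values in these contrasts. The log2 fold change was 0.61 for AKO vs WT (SE 0.15, adjusted p-value 0.138 by limma) and 0.55 for AKO vs HIP (SE 0.12, adjusted p-value 0.0762 by limma), neither past the threshold. For AKO vs HIP the threshold was passed without AKO replicate 1 (0.46, adjusted p-value 0.0290 by limma) and without AKO replicate 6 (0.59, adjusted p-value 0.0497 by limma), and over all alternatives the adjusted p-value ran from 0.00358 to 0.314.

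Insrr, the insulin receptor-related receptor, which responds to alkaline pH, was the gene of the list with the largest log2 fold change in AKO rats, and its level was low throughout. It had 8.10 to 36.4 normalized counts in WT rats (median 20.8), 6.46 to 32.5 in HIP rats (median 15.7) and 3.02 to 20.5 in AKO rats (median 6.46). All 10 AKO rats were below the WT median, and 6 of 10 were below the lowest WT rat. For these counts too the share of all genes is not given, and Insrr was named for its small p-values. The log2 fold change was -1.32 for AKO vs WT (SE 0.31, adjusted p-value 0.107 by limma) and -0.99 for AKO vs HIP (SE 0.31, adjusted p-value 0.210 by limma). For AKO vs WT it was -1.48 without AKO replicate 6 (adjusted p-value 0.0332 by limma), past the threshold, and over all alternatives the adjusted p-value ran from 0.00914 to 0.374.

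The signalling genes named differed by less. Pik3ca, a catalytic subunit of phosphoinositide 3-kinase, had a log2 fold change of -0.24 for AKO vs WT (SE 0.10, adjusted p-value 0.456 by limma). Pik3r2, a regulatory subunit of the same kinase, had one of 0.21 for AKO vs HIP (SE 0.08, adjusted p-value 0.293 by limma). For HIP vs WT, the smallest p-values belonged to Stc2, an inhibitor of the proteases that cleave binding proteins (0.34, SE 0.14), Pappa2, such a protease (0.52, SE 0.33), and Grb10, an adaptor that dampens receptor signalling (0.19, SE 0.13), each with an adjusted p-value of 0.999 by limma. Without WT replicate 3, which had the lowest WT level of Pappa2 and Grb10, these were 0.32 for Stc2, 0.28 for Pappa2 and 0.09 for Grb10. Stc2 had 45.3 to 83.4 normalized counts in HIP rats and 31.8 to 65.5 in WT rats, with 9 of 10 HIP rats above the WT median.

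**Figure D5:**
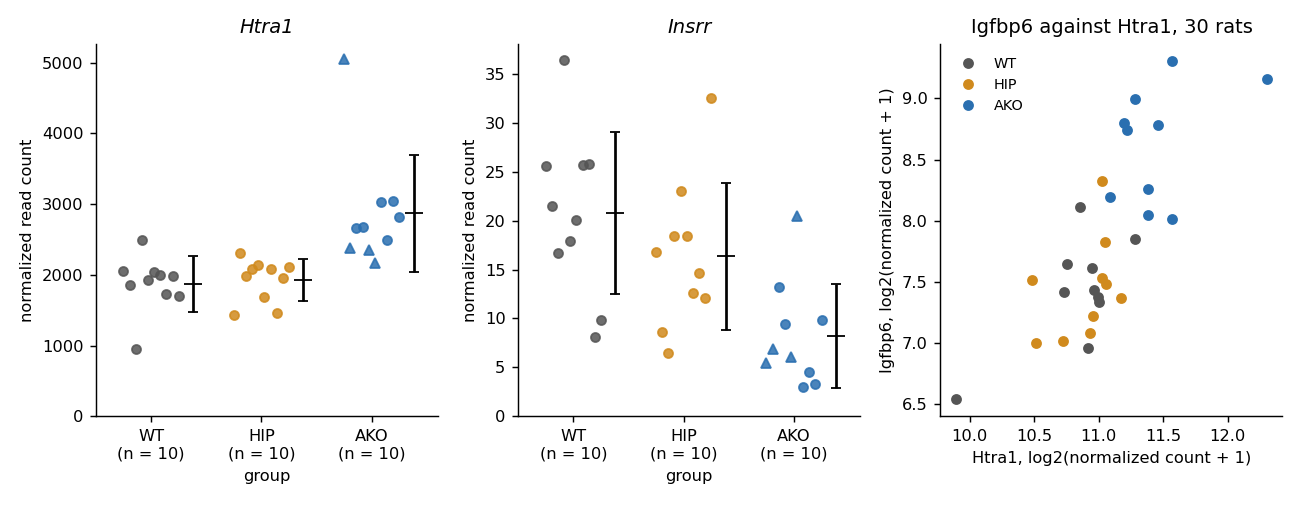
Normalized count of Htra1 and of Insrr in each rat of the WT, HIP and AKO groups with the mean ± SD (n = 10), and Igfbp6 against Htra1 in each rat on the log2(normalized count + 1) scale. Triangles mark KAH-named AKO rats in the plots by group. Htra1 reached 5061 and Igfbp6 571 in AKO replicate 1, and the Pearson r of these genes over all 30 rats was 0.76.

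The genes whose levels were most like Igfbp6 over all 30 rats, by Pearson r of the log2 values, were Ftcd (0.81), RT1-DMa (0.77), Rpl6-ps1 (0.77), Htra1 (0.76), Atic (0.74), Vasn (0.73), Lcn2 (0.73) and Esam (0.73). Spearman's rho was 0.79 for Ftcd and 0.75 for Htra1. Without the 2 rats farthest from the Igfbp6 median, AKO replicates 1 and 9, r was 0.80 for Ftcd and 0.69 for Htra1. Each of these 8 genes had a higher median in AKO rats than in WT and HIP rats, which the way they were selected largely fixes, since Igfbp6 itself was chosen on its AKO level. Ftcd, an enzyme of folate and histidine metabolism, had medians of 3.61, 7.39 and 18.8 normalized counts in WT, HIP and AKO rats, and Lcn2, a secreted iron-trafficking protein, had 6.10, 5.10 and 23.4.

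With the group means removed, which leaves the variation among rats of the same group, the genes most like Igfbp6 were S100a10 (0.75), Ubqln4 (0.74), Vasn (0.68), Frmpd1 (0.68) and AC095947.1 (0.67), and over the 27 libraries without WT replicate 3 and HIP replicates 4 and 10 they had 0.69, 0.63, 0.61, 0.56 and 0.71. Ftcd had an r of 0.58 and Htra1 one of 0.50 on this measure, and 0.41 and 0.32 over the 27 libraries. Within the set itself, Igfbp7 was most like Igfbp6, with an r of 0.59 over all rats and 0.57 with group means removed. Without WT replicate 3 and HIP replicates 4 and 10, these were 0.51 and 0.39, over 27 libraries. Over all rats Igf2 had 0.09 and -0.00 and Igf1 had -0.23 and -0.43, and over the 27 libraries they had 0.19 and -0.07, and -0.20 and -0.45. All these values are descriptions without a test, over libraries that also differ in the tissue they hold.

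The neighbours of Igfbp6 on the chromosome had smaller log2 fold changes than Igfbp6 between AKO rats and the other groups. The choice of Igfbp6 on its AKO level largely fixes this, and the difference from its neighbours was not tested. In the gene order of RefSeq GRCr8, the nearest genes measured were Krt18, Tns2 and Spryd3 on one side and Csad, Znf740 and Itgb7 on the other. For AKO vs WT their log2 fold changes ran from -0.12 to 0.16, and the smallest adjusted p-value was 0.720 by limma, and without WT replicate 3 Csad was at 0.33 (adjusted p-value 0.236 by limma). For HIP vs WT they ran from -0.33 to 0.50, wider than the 0.01 of Igfbp6, with adjusted p-values of 0.999 by limma. For AKO vs HIP they ran from -0.62 for Krt18 to 0.37 for Csad, an enzyme of taurine synthesis (SE 0.11, adjusted p-value 0.164 by limma). In the same order, Igfbp2 lies beside Igfbp5, Igf2 beside Ins2, and Igfbp1 beside Igfbp3.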

How the data were processed

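RNA of 30 rats, 10 per group by the genotype in the labels, had been extracted with an RNeasy kit and made into libraries with a SMARTER mRNA-Seq kit. Per the submitters' processing notes and methods, reads were aligned with STAR 2.7.8a in Partek 10.0.22.0228, with Bowtie2 also named, to rn7, counted on genes of Ensembl 105 and normalized with DESeq2. The values deposited by the authors are a signal, the normalized counts, and are not whole numbers. Between 80.9% and 84.6% of the values below 100 lay within 0.02 of a whole multiple of a single step per library, so estimated reads are approximate and no count model was fitted.

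Values were analysed as log2(normalized count + 1) by limma (version 3.58.1, under R 4.3.3), with a linear model per gene and moderated variances that follow a trend, two-sided, on the rats of the groups compared and genes with a mean of at least 1. P-values were adjusted by Benjamini-Hochberg over all genes tested, with a threshold of 0.05. The fit was tried on simulated data, and no outcome of that trial is reported here. Tables and figures used Python 3.11.15, numpy 2.4.6, pandas 2.3.3 and matplotlib 3.10.9. The members and gene lists were chosen with earlier results of these data known. Of the 38 other genes of the system, Igfals, Pappa, Ins1, Ins2 and Igf2bp1 were not matched. Genes named from that list are the 3 with the smallest p-values per comparison. Those most like Igfbp6 are the 8 with the highest Pearson r among genes with a mean of at least 10, and the 5 highest with group means removed.

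The alternatives were pseudocounts of 0.1 and 5, no filter, a stricter filter at 10, a single fit of all 30 rats, quantile normalization, sample-quality weights, fits without libraries that held other tissue, marker lists and the number in the sequencing run as covariates, each rat left out, and AKO rats split by name. The fits without WT replicate 3 and HIP replicates 4 and 10, those with the olfactory bulb or the blood list as a covariate, the correlations without those 3 libraries, and those of Igfbp6 with the lists within AKO rats, were chosen after seeing the data.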

Additional observations from a re-analysis of the deposited data

Results flagged for a closer look

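In groups of 10 rats, the highest or lowest value is given here if its distance to the next rat, as a share of the whole range, passed the 95% critical value of Dixon's test. Chance flags about 1 in 20 groups, and 20 values met the rule in 99 groups looked at, 8 of them among 51 groups of gene levels. Many lie in the libraries described as holding other tissue.

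Igfbp3 was 50.2 normalized counts in WT replicate 3, where the next WT rat had 113. Igfbp4 was 17.9 in WT replicate 3, where the next had 509. Htra1 was 949.5 in WT replicate 3, where the next had 1703. Igfbp6 was 320.0 in HIP replicate 4, where the next HIP rat had 226. Igf1 was 269 in AKO replicate 3, where the next AKO rat had 145.2. Igf1r was 69.3 in AKO replicate 5, where the next had 164. Htra1 was 5061 in AKO replicate 1, where the next had 3039. Pik3r2 was 3751 in HIP replicate 9, where the next had 3163.

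The other values are mean log2 levels of marker lists. The choroid plexus list was 8.58 in HIP replicate 4, where the next HIP rat had 3.54, and 6.55 in AKO replicate 7, where the next AKO rat had 3.92. The cerebellum list was 13.14 in WT replicate 3 and 9.84 in HIP replicate 10, where the next of each group had 2.76 and 2.93. The pineal gland list was 9.94 in HIP replicate 4, where the next had 1.54. The neocortical excitatory neuron list was 6.21 in WT replicate 3, where the next had 10.22. The GABA neuron list was 6.53 in WT replicate 3 and 9.69 in HIP replicate 4, where the next had 10.00 and 10.05. The microglia list was 8.24 in WT replicate 3, where the next had 8.91, and 10.11 in HIP replicate 5, where the next had 9.15. The dentate gyrus list was 6.70 in HIP replicate 4, where the next had 5.37, and 3.34 in AKO replicate 5, where the next had 4.38.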

How the results depend on the processing

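No tested gene of the set had an adjusted p-value under 0.05 by limma in any of 1126 values from alternatives, as in the fits reported, and the smallest was 0.133, for Igfbp4 in AKO vs WT. At an unadjusted p-value under 0.05 the count of these genes was above 0 in 5 of 37 alternatives for AKO vs WT, 5 of 37 for AKO vs HIP and 2 of 35 for HIP vs WT. Leaving out WT replicate 3 and HIP replicate 4 together gives, for AKO vs WT and AKO vs HIP, the same fit as leaving out the library of the pair in the comparison. It therefore appears 2 times in the counts for AKO vs HIP. For AKO vs WT, the fit without WT replicate 3 and HIP replicates 4 and 10 is also the same fit, and it too is counted. As no tested gene of the set was past the threshold, no call could reverse, and 102 differences, in 23 of 38 results, changed sign. Among the other genes named, Htra1 passed the threshold in 3 of 37 alternatives for AKO vs WT and 7 of 37 for AKO vs HIP, Insrr in 3 of 37 for AKO vs WT, Pik3ca in 1 of 37 for each, and Csad in 2 of 37 for AKO vs HIP. The described difference of Igfbp6 was 0.98 to 1.34 for AKO vs WT, the lowest with sample-quality weights. For AKO vs HIP it was 0.996 to 1.45, the lowest with the blood list as a covariate (chosen after seeing the data). The number of genes with an adjusted p-value under 0.05 was less steady. For AKO vs WT it was 17, and 27 with all 30 rats in one fit, 857 with sample-quality weights, 8 without libraries over the limit for other tissue, 38 with the meningeal list, 11 with the choroid plexus list and 31 with the run number as a covariate, 0 with only KAH-named and 68 with only AKO-named rats, 45 with the olfactory bulb list as a covariate (chosen after seeing the data), and 10 to 39 with single rats left out. For AKO vs HIP it was 29, and 56 with all 30 rats, 1143 with weights, 70 without WT replicate 3 and HIP replicate 4, 7 without libraries over the limit, 51 with the meningeal list, 3 and 120 with only KAH-named and only AKO-named rats, 44 without WT replicate 3 and HIP replicates 4 and 10 and 81 with the olfactory bulb list (both chosen after seeing the data), and 17 to 70 with single rats left out. For KAH-named vs AKO-named rats it was 1, and 1 to 8 with single rats left out (8 without AKO replicate 1, 6 without AKO replicate 2, 2 without AKO replicate 7). For HIP vs WT it was 0 in 35 of 35 alternatives. Fewer rats were fitted where libraries were left out, and the cause of the other changes was not tested. No paired analysis was possible because the replicate numbers only name the rats. Depth limits the genes with few reads, such as Insrr, with 3.0 estimated reads in AKO replicate 7.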

Other observations

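Igfbp1, a binding protein made mainly in the liver, was at the limit of detection in these libraries. It was at 0 in 8 of 30 libraries and at 3 estimated reads or fewer in 26 of 30, and its highest value was 13.0 estimated reads.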
